A study of Homo sapiens with 6 samples.

Results

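The BCL2 family decides whether the outer membrane of the mitochondrion stays closed or opens during intrinsic apoptosis. Its transcripts were examined here in A549, a human cell line from a lung adenocarcinoma, with and without knockdown of METTL3, the catalytic subunit of the complex that writes m6A on messenger RNA. The members were 10 genes chosen by symbol from the 57781 listed: the pro-survival genes BCL2, BCL2L1, BCL2L2 and MCL1, the BH3-only genes BCL2L11, BID, BBC3 and PMAIP1, and the effectors BAX and BAK1. There were 3 libraries from cells with vector, labelled WT, and 3 from cells with shMETTL3, labelled METTL3 knockdown, all made from total RNA of cells grown in DMEM with serum and without any drug named in the labels. The sample titles number the libraries as replicates, and the columns number the knockdown libraries sh1 to sh3. If these are different hairpins, their spread includes that difference, and if they share a hairpin it does not. The paper states in general that experiments were repeated independently, but the number of hairpins or clones and the source of each sequencing library are not given in the sources used here, so the p-values measure only the spread between these libraries, which may be technical.

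Pro-survival members bind and hold the effectors and the BH3-only proteins in a groove on their surface. BH3-only proteins respond to stress signals, fill that groove or activate the effectors directly, and BAX and BAK1 then form the pores through which cytochrome c leaves the mitochondrion. Released cytochrome c joins APAF1 and caspase-9 in the apoptosome, which starts the caspase cascade. Many epithelial tumour cells rely on BCL-XL, the product of BCL2L1, and on MCL1 rather than on BCL2, which is best known from follicular lymphoma.

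All 10 members share a BH3 motif, the helix by which they bind each other, and its coding sequence is shown because BH3-only, effector and pro-survival members all carry it, whereas BH1 and BH2 are found in the effectors and pro-survival members. A script translated the coding sequence of each canonical GENCODE transcript on GRCh37 and searched it for leucine or methionine, any 3 residues, glycine and aspartate. In 9 members this pattern matched exactly once, and BBC3 held it with alanine in place of glycine. The pattern is short, and 16.4% of 19894 human proteins contained it at least once, or 39.7% when alanine or serine was also allowed. Of the further family genes described at the end, BCL2A1, BCL2L10, BCL2L12 and BCL2L13 held neither form, which says only that these residues in this order were not found. Each line gives 30 bases, 5′ to 3′ on the coding strand, with the codons of the fixed residues in capitals.
BCL2: ctgaccCTCcgccaggccGGCGACgacttc, in exon 2 at chr18:60985588-60985617 on the minus strand.
BCL2L1: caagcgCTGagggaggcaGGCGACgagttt, in exon 2 at chr20:30309731-30309760 on the minus strand.
BCL2L2: caagccATGcgggcagctGGAGATgagttc, in exon 3 at chr14:23777106-23777135 on the plus strand.
MCL1: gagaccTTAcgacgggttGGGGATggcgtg, in exon 1 at chr1:150551347-150551376 on the minus strand.
BCL2L11: caagagTTGcggcgtattGGAGACgagttt, in exon 3 at chr2:111907674-111907703 on the plus strand.
BID: aggcacCTCgcccaggtcGGGGACagcatg, in exon 4 at chr22:18222187-18222216 on the minus strand.
BBC3: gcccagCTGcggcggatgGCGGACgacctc, in exon 3 at chr19:47729842-47729871 on the minus strand.
PMAIP1: actcaaCTCaggagatttGGAGACaaactg, in exon 2 at chr18:57569899-57569928 on the plus strand.
BAX: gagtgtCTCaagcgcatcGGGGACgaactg, in exon 3 at chr19:49459038-49459067 on the plus strand.
BAK1: cggcagCTCgccatcatcGGGGACgacatc, in exon 4 at chr6:33543170-33543199 on the minus strand.
The proteins around this motif differed widely in length, from 54 residues for PMAIP1, in which the 6 residues of the pattern lie at positions 29 to 34, to 350 residues for MCL1, in which they lie at positions 213 to 218.

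Library totals ran from 14931426 to 19108928 counts, and at these depths 3 counts correspond to 0.149 to 0.189 CPM (a gene's counts relative to the library total on the usual CPM scale, with totals adjusted by TMM, edgeR's trimmed mean of M-values). METTL3 itself stood at 887, 846 and 808 counts in the vector libraries and at 364, 399 and 307 in the shMETTL3 libraries, which left 38.8% of the vector level (log2 fold change -1.36, standard error 0.067, adjusted p = 4.57e-16). All 7 markers checked for A549, epithelial genes and aldo-keto reductases, were above 3 counts in every library, with a summed level of 14200 to 14800 CPM in vector and 8040 to 8420 CPM in shMETTL3. They did not move alike: EPCAM stood at 15% and KRT19 at 18.8% of the vector mean after knockdown, and AKR1C1 at 115%. CDKN2A, which A549 has lost, had at most 5 counts. Of 6 listed markers of blood, endothelium and fibroblasts, 4 stayed at or under 3 counts in every library, CD3E and VWF at 0. Their sum was 4.06 to 6.92 CPM in vector and 10.4 to 11.2 CPM in shMETTL3, mostly COL1A1, and the part of these markers in the results was not tested. Since the libraries are bulk RNA, fewer cells with a transcript and less of it per cell cannot be told apart.

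After METTL3 knockdown, 6 of the 10 members changed (edgeR's quasi-likelihood test, Benjamini-Hochberg adjusted p under 0.05 over 15125 tested genes), beside 66.6% of all tested genes. BCL2, BID and PMAIP1 rose, 3 of 10 beside 33.7% of all genes, and MCL1, BAX and BAK1 fell, 3 of 10 beside 32.9%. When libraries were scaled by size alone, the split was 5 higher and 0 lower, with BCL2L11 and BCL2L2 added to the genes that rose. That scaling put the median log2 fold change of all genes at 0.18, against 0.0022 with TMM, and raised the share of higher calls over all genes from 50.6% to 65.8%. The 3 rises passed the test on both scalings, and the 3 falls only where the bulk of the transcriptome is set to 0. The shMETTL3 and vector libraries did not overlap for 7 members, beside 69.4% of all genes. In absolute value, the log2 fold changes had a median of 0.19 over the members and 0.41 over all tested genes. All 10 members passed the filter on low counts.

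**Figure D1:**
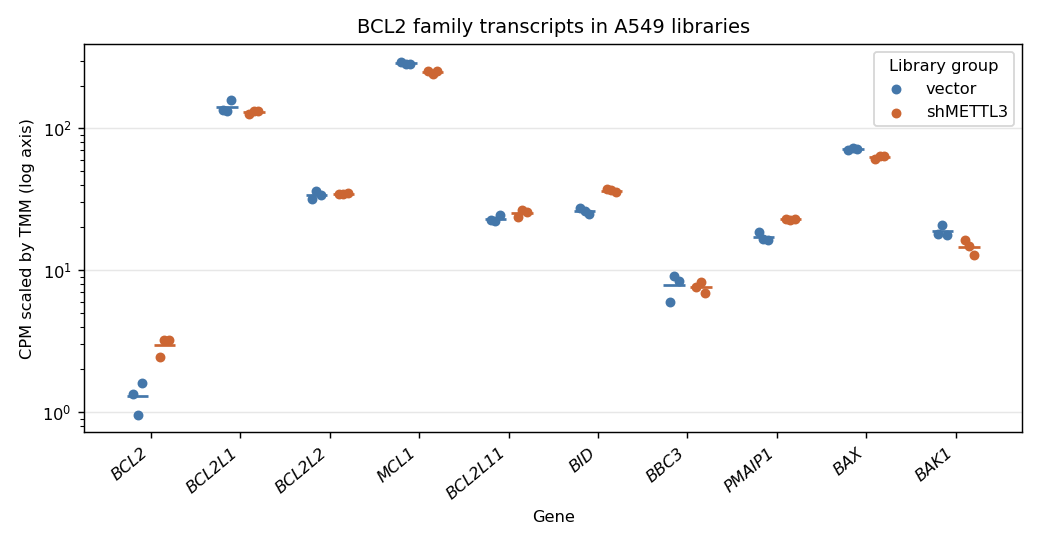
TMM-scaled level of the 10 members in CPM (vertical log axis) in each of the 3 vector libraries (blue points) and 3 shMETTL3 libraries (orange points), with the group mean as a line. BCL2, BID and PMAIP1 lie higher in every shMETTL3 library, and MCL1, BAX and BAK1 lie lower with this scaling, though none of the 3 passed the test with scaling by library size.

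Among the pro-survival members, BCL2 rose and MCL1 fell. BCL2, the founding member, spans chr18:60790579-60987361 on the minus strand and stood at 1.34, 0.956 and 1.59 CPM in vector replicates 1, 2 and 3 and at 2.43, 3.24 and 3.21 CPM in shMETTL3 replicates 1, 2 and 3. The lowest knockdown library was thus above the highest vector library. The mean went from 1.29 ± 0.32 to 2.96 ± 0.457 CPM (SD, n = 3), a 2.29-fold rise (log2 fold change 1.19, standard error 0.239, adjusted p = 8.97e-05), the largest among the members. These values rest on few reads, 16 to 26 counts per vector library and 47 to 65 per shMETTL3 library, or 66 in all (95% exact Poisson interval 51 to 84, counting error only) against 163 (139 to 190).

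MCL1, a short-lived protein that holds BAK1 and NOXA, lies at chr1:150533371-150552214 on the minus strand. Its levels were 295, 282 and 285 CPM in the vector libraries and 254, 243 and 255 CPM in the shMETTL3 libraries. All knockdown libraries were below all vector libraries, at 87.3% of the mean. The log2 fold change was -0.20 with TMM scaling (standard error 0.049, adjusted p = 0.0009), -0.02 when libraries were scaled by size alone (adjusted p = 0.703) and -0.31 with offsets for GC content and transcript length (adjusted p = 7.1e-08). ADAMTSL4 shares 43 exon bases with MCL1 on the opposite strand (log2 fold change 1.06, adjusted p = 1.4e-07), and ADAMTSL4-AS1 shares 328 on the same strand, with 0 to 4 counts.

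BCL2L1, which encodes BCL-XL and lies at chr20:30252255-30311792 on the minus strand, was at 135, 133 and 158 CPM in vector and at 126, 132 and 133 CPM in shMETTL3. Vector replicate 3 stood above the other 5 libraries, which were close to each other, and the groups touched without overlapping. The log2 fold change of -0.13 (95% interval -0.25 to -0.01) missed the threshold at an adjusted p of 0.061. It passed without vector replicate 1 (-0.17, adjusted p = 0.0242) or 2 (-0.18, adjusted p = 0.0152). Without vector replicate 3 it was -0.05 (adjusted p = 0.343), and with scaling by library size it was 0.05. The exons of BCL2L1 share 1735 bases, 41.3% of their length, with the antisense transcript ABALON, which had 7 to 25 counts.

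BCL2L2, which encodes BCL-w and lies at chr14:23767999-23780960 on the plus strand, was at 31.7, 36.3 and 33.6 CPM in vector and at 34.2, 34.6 and 35.2 CPM in shMETTL3. The knockdown libraries lay inside the vector range. The log2 fold change was 0.03 (95% interval -0.11 to 0.17, adjusted p = 0.694), and it was 0.21 (adjusted p = 0.0118) with scaling by library size. BCL2L2 shares 16.8% of its exon bases with the readthrough transcript BCL2L2-PABPN1, which had 1 to 7 counts per library and was not tested. On the opposite strand it shares 6.51% with PPP1R3E (112 to 156 counts, log2 fold change 0.10, adjusted p = 0.497) and 3.08% with HOMEZ (224 to 380 counts, log2 fold change -0.42, adjusted p = 0.00018). For PABPN1, the downstream gene of that readthrough, the log2 fold change was 0.11 (adjusted p = 0.226).

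Of the 4 BH3-only members, BID and PMAIP1 rose and 0 fell, beside 33.7% and 32.9% of all tested genes, and with scaling by library size BCL2L11 rose as well. BID links death receptors to mitochondria once caspase-8 cleaves it, and lies at chr22:18216904-18257536 on the minus strand. It stood at 27.6, 26.2 and 25 CPM in vector and at 37.3, 36.6 and 35.3 CPM in shMETTL3. The groups were well apart, with means of 26.3 ± 1.31 and 36.4 ± 0.984 CPM (SD, n = 3). BID was 1.39-fold higher after knockdown (log2 fold change 0.47, standard error 0.069, adjusted p = 1.04e-06).

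PMAIP1 encodes NOXA, a p53 target that binds MCL1, and lies at chr18:57567228-57571537 on the plus strand. Its levels were 18.6, 16.6 and 16.3 CPM in vector and 23.1, 22.5 and 22.8 CPM in shMETTL3. The knockdown libraries were closer to each other than the vector libraries and all above them. PMAIP1 was 1.33-fold higher (log2 fold change 0.41, standard error 0.081, adjusted p = 6.93e-05), and the log2 value was 0.27 (adjusted p = 0.00193) with the offsets for GC content and length.

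BCL2L11 encodes BIM, which binds all pro-survival members and which FOXO factors can induce, and lies at chr2:111876955-111926021 on the plus strand. It was at 22.6, 22.1 and 24.5 CPM in vector and at 23.6, 26.4 and 25.9 CPM in shMETTL3. The groups overlapped. The log2 fold change was 0.13 (95% interval -0.02 to 0.29, adjusted p = 0.13). It was 0.31 (adjusted p = 0.000979) with scaling by library size and 0.04 (adjusted p = 0.63) with offsets for GC content and length. The lncRNA MIR4435-2HG, on the opposite strand, covers 10.8% of the exon bases of BCL2L11 and had 53 to 109 counts, with a log2 fold change of -0.59 (adjusted p = 0.0053). Whether the counting used strand is not given in the sources used here, so reads of the overlapping transcripts cannot be told apart.

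BBC3 encodes PUMA, another p53 target, and lies at chr19:47724079-47736023 on the minus strand. It was at 5.95, 9.15 and 8.45 CPM in vector and at 7.6, 8.22 and 6.92 CPM in shMETTL3. Vector replicate 1 was the lowest of the 6 libraries and vector replicate 2 the highest, and the knockdown libraries lay between them. The log2 fold change was -0.04, and its 95% interval of -0.33 to 0.25 was the widest after that of BCL2 (adjusted p = 0.82). Its sign turned without vector replicate 2 (0.08), vector replicate 3 (0.01) or shMETTL3 replicate 3 (0.02). Without vector replicate 1 the value was -0.22 (adjusted p = 0.164).

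Both effectors fell with TMM scaling, beside 32.9% of all tested genes, and neither passed the test with scaling by library size. BAX, which moves from the cytosol to mitochondria when activated, lies at chr19:49458072-49465055 on the plus strand and stood at 69.9, 72.3 and 71.2 CPM in vector and at 60.8, 63.4 and 64.1 CPM in shMETTL3. The groups did not overlap, and the knockdown mean was 88.2% of the vector mean. The log2 fold change of BAX was -0.18 (standard error 0.055, adjusted p = 0.00513), but -0.01 (adjusted p = 0.92) with scaling by library size and 0.00 (adjusted p = 0.966) with offsets for GC content and length.

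BAK1, the effector that resides on mitochondria, lies at chr6:33540324-33548070 on the minus strand. Its levels were 17.9, 20.8 and 17.7 CPM in vector and 16.4, 14.8 and 12.8 CPM in shMETTL3. The highest knockdown library was below the lowest vector library, although both groups were spread. BAK1 had the largest fall among the members, to 78.1% of the vector mean (log2 fold change -0.35, standard error 0.096, adjusted p = 0.00231), and with scaling by library size the value was -0.18 (adjusted p = 0.123).

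**Figure D2:**
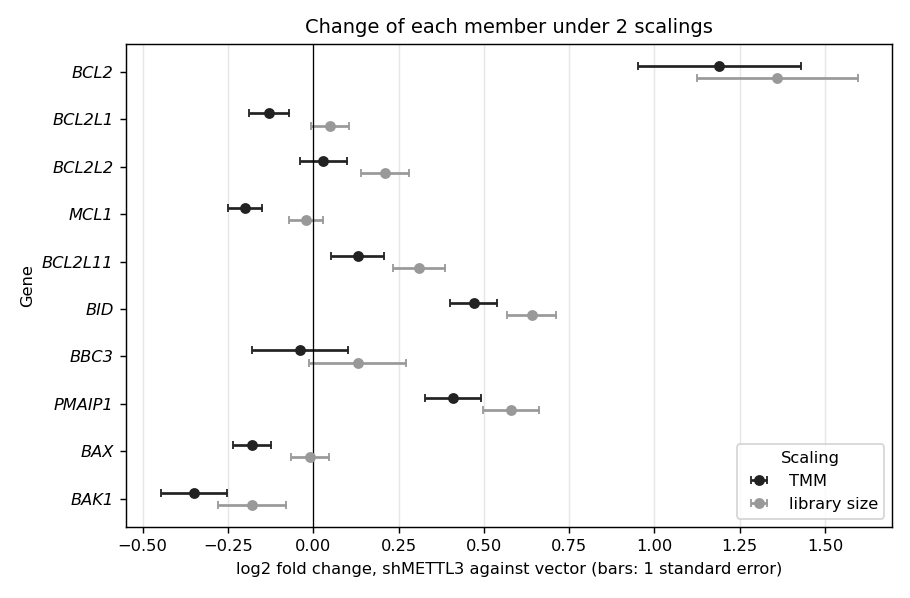
Log2 fold change of each member, shMETTL3 against vector (horizontal axis), with 1 standard error as bars, under TMM scaling (black) and under scaling by library size alone (grey). BCL2 at 1.19, BID at 0.47 and PMAIP1 at 0.41 are above 0 on both scalings, and MCL1 and BAX move to -0.02 and -0.01 with scaling by library size.

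Levels of different genes were compared per kilobase of canonical transcript. In the vector libraries BAX had the highest level, 89.5 CPM per kb, followed by MCL1 at 72.8 and BCL2L1 at 55.2, and these 3 kept that order after knockdown at 79.0, 63.5 and 50.6. BID came next, with 12.1 CPM per kb in vector and 16.7 in shMETTL3. The ranges of BCL2L2 (8.99 to 10.3), PMAIP1 (8.57 to 9.79) and BAK1 (8.15 to 9.59) overlapped in vector, while in shMETTL3 PMAIP1 (11.8 to 12.1) stood clear of BCL2L2 (9.7 to 9.97), with BAK1 at a mean of 6.76. BCL2L11 (4.33 to 4.8) and BBC3 (3.22 to 4.95) overlapped in vector and were apart in shMETTL3, at 4.63 to 5.18 and 3.75 to 4.45. BCL2 was the lowest in both groups, at 0.188 and 0.43 CPM per kb. The order depends on the length used: over all merged exons, a choice added after the data were seen, MCL1 led in vector with 46.2 CPM per kb and BAX came after BCL2L1 with 27.5 against 33.9. Gene counts do not separate isoforms such as BCL-XL and BCL-XS or the long and short forms of MCL1, whose products can act in opposite ways.

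The shares of the family's summed level per kb do not depend on how libraries are scaled. The 4 BH3-only members held 10.9 to 11.5% of it in the vector libraries and 14.8 to 15.5% in the shMETTL3 libraries. This gap holds for these 4 genes and not for BH3-only genes in general. With BIK, BMF, BAD and HRK added, a choice made after the data were seen, the BH3-only share was 16.8 to 16.9% in vector and 17.3 to 18.3% in shMETTL3. Over all merged exons it turned, with 22.1 to 22.4% in vector and 21.1 to 22% in shMETTL3. The summed level of these 8 genes per kb of canonical transcript was 47.8 ± 0.917 CPM in vector and 46.0 ± 1.08 CPM in shMETTL3 (SD, n = 3), with BIK at 12.7 CPM per kb in vector and 1.05 in shMETTL3. The effectors held 36.2 to 38% in vector and 34.2 to 34.9% in shMETTL3, and the pro-survival members 50.6 to 53% in vector and 49.6 to 50.6% in shMETTL3. BID went from a mean share of 4.54% to 6.75%, PMAIP1 from 3.4% to 4.84%, and BCL2 from 0.0707% to 0.173%. Over all merged exons the mean share of the 4 BH3-only members alone was 13.8% in vector and 18.4% in shMETTL3. These shares are given as a description, with no test.

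Ratios of counts between 2 members within a library are free of scaling as well, and 4 pairs with a known relation were taken. BAX counts were 52.3, 75.6 and 44.8 times those of BCL2 in vector and 25, 19.6 and 20 times in shMETTL3. BCL2L1 counts were 101, 139 and 99.2 times those of BCL2 in vector and 51.9, 40.7 and 41.5 times in shMETTL3. Both ratios were lower in every knockdown library, by 1.39 and 1.33 on the log2 scale, with BCL2 as their shared and thinly counted denominator.

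MCL1 counts were 15.9, 17.1 and 17.5 times those of PMAIP1 in vector and 11, 10.8 and 11.2 times in shMETTL3. This ratio decreased by 0.61 on the log2 scale, from 4.07 ± 0.073 to 3.46 ± 0.025 (SD, n = 3). MCL1 counts were 13, 12.8 and 11.6 times those of BCL2L11 in vector and 10.8, 9.2 and 9.88 times in shMETTL3, a log2 ratio of 3.64 ± 0.088 against 3.31 ± 0.12 (SD, n = 3). No test was run on these 4 pairs, which were chosen with earlier results known, and each sets a gene with a negative log2 fold change over one with a positive one, so that their direction is no further evidence. The groups overlapped in none of the 4, which this choice made likely. The 69.4% of single genes without overlap is no background for such ratios.

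**Figure D3:**
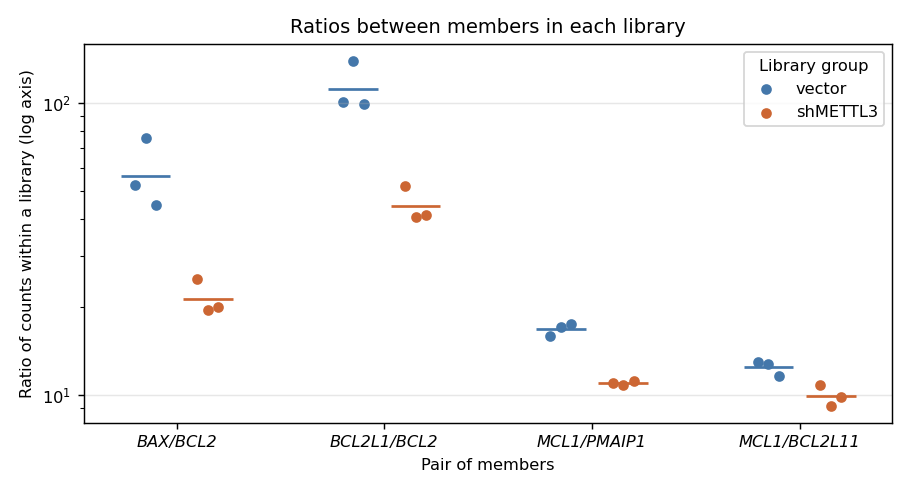
Ratio of the counts of 2 members within each library (vertical log axis) for 4 pairs, with the 3 vector libraries in blue, the 3 shMETTL3 libraries in orange and the mean of the log2 ratios as a line. Every shMETTL3 library lies below every vector library in each pair, and the gap is widest for the ratios over BCL2.

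Outside these members, 11 further genes are counted to the BCL2 family, and 8 of them passed edgeR's filter on low counts. Of these, 2 rose and 5 fell, 7 of 8 called beside 66.6% of all tested genes, and 3 rose and 4 fell with scaling by library size. Both counts include BCL2A1, which passed the filter only through the shMETTL3 libraries, so they cannot be set fairly against that share. With at least 10 counts asked of every library, which leaves out BCL2A1, 1 rose and 5 fell, 6 of 7 called beside 9076 of 13384 genes. BIK and BMF, both BH3-only genes, moved by more than any of the 10 members and in opposite directions, and the coding sequence of their BH3 motif is shown beside that of the members above, with BMF again carrying alanine in place of glycine.
BIK: ctgcggCTGgcctgcatcGGGGACgagatg, in exon 3 at chr22:43523716-43523745 on the plus strand.
BMF: cgaaagCTTcagtgcattGCAGACcagttc, in exon 4 at chr15:40396402-40396431 on the minus strand.
BIK, a BH3-only protein of the endoplasmic reticulum, had 195, 203 and 218 counts in vector and 15, 22 and 18 counts in shMETTL3. It fell 12.1-fold, from 12.1 ± 1.25 to 1.0 ± 0.196 CPM (log2 fold change -3.59, standard error 0.176, adjusted p = 3.8e-16). BMF, which is held on the cytoskeleton until released, had 17, 19 and 13 counts in vector and 137, 137 and 109 counts in shMETTL3. It rose 7.22-fold, from 0.959 ± 0.17 to 6.92 ± 0.143 CPM (log2 fold change 2.84, standard error 0.195, adjusted p = 5.43e-13).

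BCL2A1, a pro-survival gene induced by NF-kB, had 1, 1 and 2 counts in vector and 23, 15 and 21 counts in shMETTL3. It was at least 6.15-fold higher after knockdown, against a floor of 3 counts per library. Its p is not given, because it passed the filter only through the shMETTL3 libraries. BCL2L12 fell from 23.7 to 11.3 CPM (log2 fold change -1.07, adjusted p = 2.37e-11), and 25.9% of its exon bases overlap IRF3. Genes on the opposite strand also overlap exon bases of BAD (GPR137, 23.7%), BMF (BMF-AS1, 8.46%) and BOK (BOK-AS1, 7.5%). The part of their reads in these counts was not tested. BOK, a relative of BAX and BAK1, fell from 16.1 to 9.54 CPM (log2 fold change -0.75, adjusted p = 1.97e-07). BCL2L15 fell from 6.0 to 4.25 CPM (log2 fold change -0.50, adjusted p = 0.00359). BCL2L13, a mitophagy receptor, went from 74.7 to 65.0 CPM (log2 fold change -0.20, adjusted p = 0.00278), and to -0.03 (adjusted p = 0.683) with scaling by library size. BAD, a BH3-only protein controlled by phosphorylation, did not pass the test (log2 fold change 0.20, adjusted p = 0.234), with 4.54 CPM in vector and 5.2 in shMETTL3, but was called with scaling by library size (0.38, adjusted p = 0.0273). BCL2L10, HRK and BCL2L14 had at most 8 counts in any library and did not pass edgeR's filter. BCL2L10 had 0 counts in every vector library and 8, 6 and 1 in the shMETTL3 libraries. DESeq2, run without that filter, did not call HRK (adjusted p = 0.761) or BCL2L14 (adjusted p = 0.484), and its p for BCL2L10 is not given for the same reason as for BCL2A1.

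**Figure D4:**
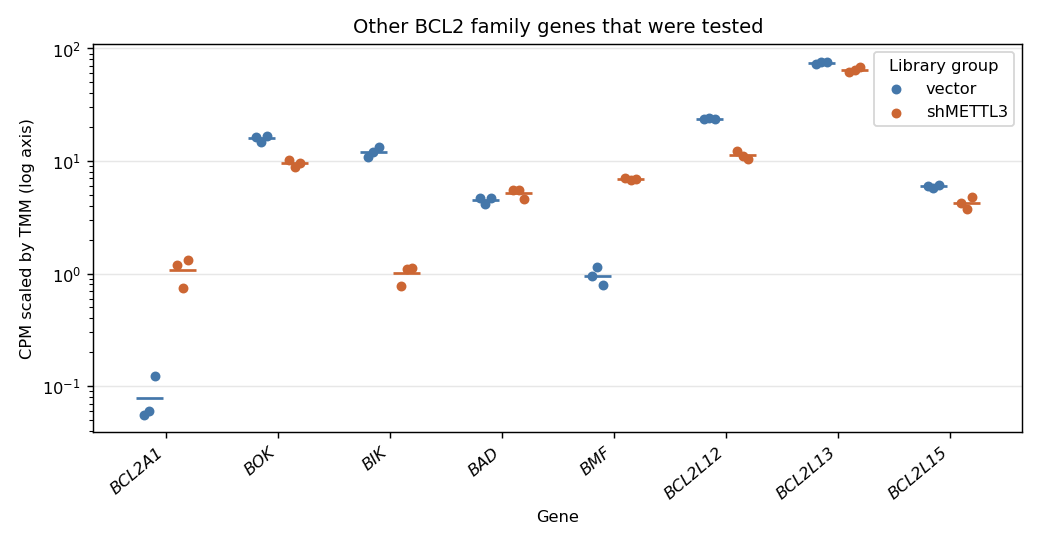
TMM-scaled level in CPM (vertical log axis) of the 8 tested BCL2 family genes outside the 10 members, in the 3 vector libraries (blue points) and the 3 shMETTL3 libraries (orange points), with the group mean as a line. BMF and BCL2A1 lie higher and BIK, BCL2L12 and BOK lower in every shMETTL3 library, and the groups overlap for BAD.

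Downstream of BAX and BAK1, all 18 listed genes of the mitochondrial death pathway were tested, and 6 rose and 8 fell, with a median log2 fold change of -0.066. Over all tested genes 33.7% rose and 32.9% fell, so that the 14 of 18 called stand beside 66.6%. Without vector replicate 1, without shMETTL3 replicate 1 or with DESeq2, 6 rose and 5 fell. With scaling by library size 8 rose and 3 fell, where 65.8% of the calls over all genes were rises. CASP9, the initiator caspase of the apoptosome, fell most, with 197, 196 and 202 CPM in vector and 61.6, 58.4 and 64.6 CPM in shMETTL3 (log2 fold change -1.69, standard error 0.054, adjusted p = 3.41e-20). APAF1, the scaffold of the apoptosome, fell from 16.3 to 9.68 CPM (log2 fold change -0.75, adjusted p = 1.85e-07), and BIRC5, which encodes survivin, from 24.8 to 15.6 CPM (log2 fold change -0.67, adjusted p = 1.18e-07). The genes that rose most encode other inhibitor of apoptosis proteins. BIRC3 went from 14.4 to 35.3 CPM (log2 fold change 1.28, adjusted p = 1.11e-13) and BIRC2 from 31.7 to 49.6 CPM (log2 fold change 0.65, adjusted p = 5.4e-09). XIAP, which blocks caspase-9 and caspase-3, went from 23.8 to 48.8 CPM (log2 fold change 1.03, adjusted p = 1.3e-12). It lies on the X chromosome, whose 433 tested genes had a median log2 fold change of 0.74. These 6 genes kept their direction and call under all 4 scalings tried.

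Of 12 regulators of the family, transcription factors, ubiquitin enzymes and co-chaperones, 11 were tested, and 6 rose and 4 fell, with a median log2 fold change of 0.20. These 10 of 11 stand beside 66.6% of all tested genes called. With scaling by library size 7 rose and 2 fell, again where 65.8% of all calls were rises. USP9X, a deubiquitinase that stabilises MCL1, rose from 156 to 221 CPM (log2 fold change 0.51, adjusted p = 1.68e-09) and also lies on the X chromosome. FBXW7, a ubiquitin ligase subunit that marks MCL1 for degradation, rose from 13.6 to 18.3 CPM (log2 fold change 0.43, adjusted p = 8.07e-05), and DDIT3, which encodes the stress factor CHOP, from 6.17 to 8.67 CPM (log2 fold change 0.49, adjusted p = 0.00221). FOXO3, an activator of BCL2L11 transcription, fell from 14.9 to 9.44 CPM (log2 fold change -0.66, adjusted p = 1.1e-05). BAG1, a co-chaperone that binds BCL2, fell from 311 to 199 CPM (log2 fold change -0.64, adjusted p = 1.36e-11). BAG3 went from 68.2 to 56.9 CPM (log2 fold change -0.26, adjusted p = 0.000432), and to -0.09 (adjusted p = 0.2) with scaling by library size.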

How the data were processed

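RNA sequencing of 6 A549 libraries, 3 vector and 3 shMETTL3, was analysed from the count table deposited by the authors. Per the labels' processing notes, reads were trimmed with cutadapt 3.0, mapped to hg19 with HISAT2 2.2.1, handled with SAMtools 1.13 and counted with HTSeq 0.13.5. The paper's methods name other versions of HISAT2 and HTSeq. The deposited counts are whole numbers per gene and library, not normalized, for 57781 genes named by symbol, 28913 of them with a count. Groups and replicate numbers came from the sample titles. The annotation and strand setting of the counting are not given in the sources used here. Depth was 14931426 to 19108928 counts per library. Poisson intervals and floors cover counting error only, while intervals of fold changes come from the edgeR fit and include the spread between libraries.

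Counts were tested in R 4.3.3 with edgeR 4.0.16 (TMM, filterByExpr, glmQLFit and glmQLFTest, group only), with Benjamini-Hochberg adjustment over 15125 genes. CPM values are scaled by TMM. Alternatives were DESeq2 1.42.0, limma-voom (limma 3.58.1), RLE, upper-quartile and library-size scaling, no filter, a minimum of 10 counts per library, a replicate block, offsets for GC content and length (loess, span 0.3, 13447 annotated genes), a minimum absolute log2 fold change of 1, and each library left out. Positions, lengths and coding sequences came from GENCODE v44 lifted to GRCh37, the build of hg19. Per-kb levels used the canonical transcript.

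The genes named one by one are the 10 members, METTL3 and every further family gene (beyond the rule, which asked for a test, also BCL2L10, HRK and BCL2L14). Genes whose exons overlap those of the members are named if they had more than 1 count in any library, and PABPN1 for its readthrough with BCL2L2. IRF3, GPR137, BMF-AS1 and BOK-AS1 are named for their overlap with further family genes, a choice made after the data were seen. Also named are the 3 genes most like BCL2 across libraries, and up to 3 called genes per direction with the largest change in the death pathway and regulator lists. The members and lists were chosen with earlier results of these data known. PECAM1 was on the marker list and was not analysed here. Within a group, pairs of libraries differed by 2.75 to 7.2 in chi-square per degree of freedom, more than counting error alone would give. Each was counted as its own sample, but these values do not show that the libraries came from separate cultures. On simulated counts with 15069 tested genes, edgeR recovered 80 of 99 genes changed by 0.5 and 98 of 101 changed by 1 on the log2 scale, and called 10 unchanged genes. Only those genes were changed there, in both directions and with the same dispersion for all genes. In the real data 66.6% of tested genes were called, so the simulation cannot speak for the choice of scaling or for smaller changes.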

Additional observations from a re-analysis of the deposited data

How the results depend on the processing

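BCL2, BID, PMAIP1 and METTL3 kept their direction and their call under all 15 alternatives that keep the threshold, with log2 fold changes of 1.01 to 1.36, 0.40 to 0.64, 0.27 to 0.58 and -1.42 to -1.19. With scaling by library size, MCL1 (-0.02), BAX (-0.01) and BAK1 (-0.18) lost their call, BCL2L2 (0.21) and BCL2L11 (0.31) gained one, and BCL2L1 (0.05) and BBC3 (0.13) changed sign. With offsets for GC content and length, BAX (0.00), BCL2L2 (-0.10) and BBC3 (0.10) changed sign, and BCL2L1 (-0.17) was called, as it was with no filter (-0.14). MCL1 went to -0.31 and PMAIP1 to 0.27 and stayed called. The causes were not tested. With libraries left out in turn, BCL2L1 ran from -0.18 to -0.05, BCL2L2 from -0.02 to 0.08 and BBC3 from -0.22 to 0.08. BCL2L2 turned to -0.02 without vector replicate 1. The count of members called was 6 or 7 in those fits.

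With a minimum absolute log2 fold change of 1, 1 member, 4 further family genes, 3 death pathway genes, 0 regulators and 2668 genes in all (17.6% of those tested) passed, so that BID and PMAIP1 did not. The 4 include BCL2A1, which passed the filter only through the shMETTL3 libraries. Over all tested genes, the deviations of same-numbered libraries had correlations of 0.05, -0.01 and 0.03. Weakly counted genes weigh as much as others in these values, so they cannot exclude a pairing that affects fewer genes. With the replicate block, BCL2L1 (-0.12, adjusted p = 0.0401) was called, and 10111 of all genes were. Depth limits BCL2, at 16 to 65 counts per library.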

Other observations

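Across the 6 libraries, the tested genes whose log2(CPM + 0.1) followed that of BCL2 most closely were MSC-AS1 (Pearson r = 0.9978), PRDM2 (r = 0.9966) and SRRT (r = 0.9965). The 6 points share 2 groups, and 2130 of 15124 genes had r over 0.9, so the values describe the group difference and carry no p.

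BCL2 and PMAIP1 lie 3.22 Mb apart on chromosome 18 and share 10 of their 20 nearest tested genes. Of these 20, 11 rose and 8 fell around BCL2, with a median log2 fold change of 0.25, and 12 rose and 7 fell around PMAIP1, with a median of 0.27. The median over the 195 tested genes of the chromosome was 0.05. Over all tested genes, 33.7% rose and 32.9% fell. Around BAK1, 3 of the 20 nearest genes rose and 10 fell, with a median of -0.28, and around BCL2L1, whose own value was -0.13, 11 rose and 5 fell, with a median of 0.21. The medians were -0.21 around BAX and -0.20 around BBC3, on a chromosome with a median of -0.18, and -0.13 around BCL2L2, -0.03 around BCL2L11, -0.01 around MCL1 and 0.01 around BID.

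The letters GGACT, a common form of the m6A consensus, were counted in the canonical transcript of each gene, in the sense direction only, and no other motif was searched. All 10 members held a match, as did 90.3% of 13447 annotated tested genes. The members had a median of 2.03 matches per kb, from 0.436 in BCL2 to 3.79 in BBC3, and all annotated genes a median of 0.92 with quartiles of 0.549 and 1.38. A match is not a measured m6A site, and m6A was not measured in these libraries.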
